A study of Mus musculus with 7 samples.

Results

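The 9 genes described here encode the core machinery of necroptosis and of the inflammasome in mouse brown fat. They were chosen by name, as death pathway genes in which the mitochondrial phosphatase PGAM5 has been implicated. All 9 of them (Ripk1, Ripk3, Mlkl, Fadd, Casp8, Nlrp3, Pycard, Casp1 and Gsdmd) were found among the 53715 gene identifiers of the count table, and 8 passed the filter on low counts. RNA came from interscapular brown adipose tissue, a fat pad on the upper back whose cells burn fuel to make heat. The KO group is 3 libraries from male C57BL/6J mice aged 10 weeks with the genotype PGAM5 KO, and the WT group is 3 libraries from wild-type males of the same strain and age. The labels describe separate individuals and say no more of the KO allele, so whether it is absent from all cells or from some was not recorded. A further KO sample (replicate 4) was not analysed here.

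Necroptosis is a lytic form of cell death. RIPK1 and RIPK3 are kinases that bind each other through a shared interaction motif, and RIPK3 then phosphorylates MLKL, which permeabilises the plasma membrane. FADD and caspase-8 join RIPK1 downstream of death receptors, where caspase-8 can start apoptosis and also cleaves RIPK1 and RIPK3, which holds necroptosis back. The inflammasome is a separate assembly in which the sensor NLRP3 recruits the adaptor ASC (encoded by Pycard) and caspase-1, and caspase-1 cleaves pro-interleukin-1beta and gasdermin D (Gsdmd), a pore former. PGAM5 was described as a partner of the RIPK3 complex at mitochondria and as a regulator of inflammasome activity, and the KO mice allow the RNA levels of these genes to be set beside wild type.

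Total counts ran from 18952348 to 21826942 in KO libraries and from 18034204 to 33617762 in WT libraries. Transcripts of the mitochondrial genome took 19.7% to 34.1% of KO counts and 30.3% to 43.0% of WT counts, with KO 3 lowest and WT 2 highest. Pgam5, the gene removed, had 1, 3 and 11 counts in KO 1 to KO 3 and 167, 122 and 186 counts in WT 1 to WT 3. The brown fat marker Ucp1 was abundant throughout, at 3765 to 5974 CPM (counts scaled to library size) in KO libraries and 1638 to 2853 CPM in WT libraries (log2 1.06, SE 0.28, edgeR adjusted p = 0.310; it passed with DESeq2). Its log2 fold change was the highest of 10 tested brown adipocyte markers, of which 5 were positive and 5 negative (median 0.03).

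None of the 8 tested genes passed the edgeR quasi-likelihood test of KO against WT (adjusted p of 0.05 over 15123 genes, where 9 genes, or 0.0595%, passed, 0.0198% higher and 0.0397% lower in KO). Their log2 fold changes, KO minus WT, lay between -0.21 and 0.49, 4 positive and 4 negative, with a median of -0.01, against -0.00191 over all tested genes. The smallest unadjusted p among them was 0.112, so 0 of 8 were under an unadjusted p of 0.05, against 11.8% of all genes. DESeq2 and limma-voom also called 0 of the members, while calling 168 and 7 genes in all. In 1 of the 8, Casp8, the groups did not overlap and KO was the higher. Over all tested genes 19.5% showed no overlap, 10.1% with KO higher and 9.39% with KO lower.

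**Figure D1:**
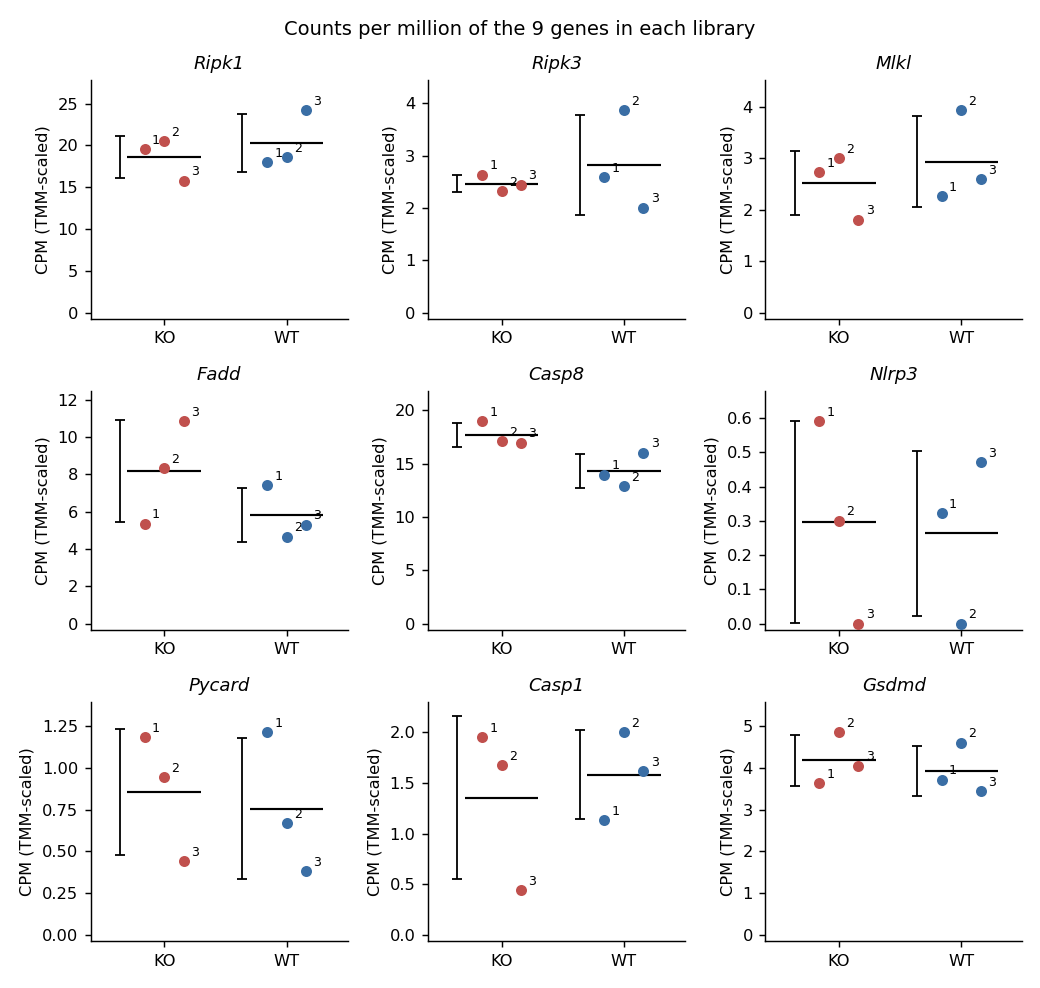
TMM-scaled CPM (y axis, linear) of each gene in the 3 KO and 3 WT libraries; points carry the replicate number, horizontal lines are group means and the bars beside them are 1 SD. The KO and WT points are interleaved in every panel except that of Casp8, where the KO points (17.0 to 19.0 CPM) all lie above the WT points (12.9 to 16.0 CPM).

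Promoter sequences were available for 8 of the 9 genes, in the RefSeq table of GRCm38.p6, the build that mm10 names, as 10 windows from 250 bases before to 50 bases after a start. They were searched on both strands for an interferon-response element (GAAA, any 2 bases, GAAA, in 3.44% of 32851 promoters) and a kappaB site (GGGA, any 3 bases, CCC, 5.55%), since interferon and NF-kappaB are the usual inducers of several of these genes. An interferon element was found at the second listed start of Ripk1 and a kappaB site at that of Nlrp3, and none of these letters occurred in the windows of the other members. The sequences are shown for these members, for Casp8 because it was the gene without overlap, and for the interferon-induced gene Gbp3 as a contrast, whose KO libraries all lay above the WT libraries. Of the 5 genes searched beside the members, Gbp5 also held an interferon element. Tap1, Irf1 and Tnfsf10, likewise higher in every KO library, held none, nor did the second start of Gbp3, and Irf1 held a kappaB site. The listed start of Casp8 lies inside its gene span, which begins at 58795374 on chromosome 1. The stretch shown is therefore not the sequence before that first base, which was not searched. Capitals mark the matches, and a match is a description of the sequence only. All are on the plus strand, 5′ to 3′.
Casp8, 100 bases before the start, chr1:58802402-58802501: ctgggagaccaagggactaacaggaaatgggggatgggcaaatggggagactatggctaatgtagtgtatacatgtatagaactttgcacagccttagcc
Ripk1, interferon element, chr13:34002844-34002903: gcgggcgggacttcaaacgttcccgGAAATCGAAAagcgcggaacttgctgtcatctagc
Nlrp3, kappaB site, chr11:59541358-59541417: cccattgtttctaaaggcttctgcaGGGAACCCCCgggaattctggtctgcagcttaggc
Gbp3, 2 overlapping interferon elements, chr3:142559974-142560039: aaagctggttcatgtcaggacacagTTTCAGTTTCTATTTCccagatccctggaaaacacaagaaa

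Among the kinases, Ripk1 (ENSMUSG00000021408.15, chromosome 13 from 34002363 to 34037147, mm10) had 19.6, 20.5 and 15.8 CPM in KO 1 to KO 3 and 18.02, 18.6 and 24.2 CPM in WT 1 to WT 3. The groups overlapped, with the lowest value in KO 3 and the highest in WT 3. The group means were 18.6 ± 2.50 CPM in KO and 20.3 ± 3.42 CPM in WT (SD, n = 3 each). The edgeR fit gave a log2 fold change of -0.13 (SE 0.19, adjusted p = 0.790). The 95% interval of the KO to WT ratio ran from 0.680 to 1.24. Serpinb6a, a protease inhibitor gene on the opposite strand, shares 241 exonic bases with Ripk1 and had 2536 counts against 2779 for Ripk1. The strand setting of the counting is not given in the sources used here, so reads in that stretch cannot be assigned. Serpinb6a had a log2 fold change of -0.24 (SE 0.19). Gm17084, a processed pseudogene on the same strand, shares 511 exonic bases with Ripk1 and had 0 counts. Reads in those bases match both annotations whatever the strand setting.

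Ripk3 (ENSMUSG00000022221.14, chromosome 14 from 55784995 to 55788865), the kinase that activates MLKL, had 58, 54 and 50 counts in KO and 64, 58 and 68 counts in WT. Scaled to library size, that was 2.64, 2.32 and 2.44 CPM in KO 1 to KO 3 and 2.59, 3.87 and 2.001 CPM in WT 1 to WT 3. The KO libraries lay close together inside the range of the WT libraries, which was set by WT 2 at the top and WT 3 at the bottom. The log2 fold change was -0.18 (SE 0.34, edgeR adjusted p = 0.834), with a 95% interval of the ratio from 0.524 to 1.496. The estimate was 0.11 without WT 2 and -0.38 without WT 3.

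Mlkl (ENSMUSG00000012519.14, chromosome 8 from 111311797 to 111338177), the executioner of necroptosis, had 2.73, 3.00 and 1.81 CPM in KO 1 to KO 3 and 2.26, 3.94 and 2.59 CPM in WT 1 to WT 3. WT 2 was again the highest library and KO 3 the lowest, and the other 4 lay between 2.26 and 3.00 CPM. The log2 fold change was -0.21 (SE 0.35, edgeR adjusted p = 0.812), the 95% interval of the ratio ran from 0.503 to 1.49, and the estimate was 0.05 without WT 2. For Ripk1, Ripk3 and Mlkl the intervals thus lie inside 0.5 to 2, as they do for Casp8 and Gsdmd, 5 of the 8 tested genes. Each interval is for 1 gene and is not adjusted for the number of genes.

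On the death receptor side, Casp8 (ENSMUSG00000026029.14, chromosome 1 from 58795374 to 58847503), the initiator caspase, had 19.0, 17.1 and 17.0 CPM in KO 1 to KO 3 and 13.9, 12.9 and 16.0 CPM in WT 1 to WT 3. The KO libraries were all higher, although KO 3 and WT 3 stood within 1 CPM of each other. Means were 17.7 ± 1.13 CPM in KO and 14.3 ± 1.59 CPM in WT (SD, n = 3 each). The threshold was not reached (log2 0.31, SE 0.17, edgeR adjusted p = 0.484), and the 95% interval of the ratio, 0.942 to 1.62, includes no change. Its sign was the same in all 16 alternatives, at 0.24 to 0.40, with adjusted p from 0.450 to 0.775.

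Fadd (ENSMUSG00000031077.7, chromosome 7 from 144577318 to 144582463), the adaptor that brings caspase-8 to death receptors, had 5.37, 8.33 and 10.8 CPM in KO 1 to KO 3 and 7.43, 4.67 and 5.30 CPM in WT 1 to WT 3. KO 2 and KO 3 lay above all WT libraries and KO 1 lay among them. Its log2 fold change, 0.49 with an SE of 0.31, had the largest size among the 8 and missed the threshold (edgeR adjusted p = 0.515), with a 95% interval of the ratio from 0.873 to 2.26. Without KO 1 the log2 fold change was 0.73, with an edgeR adjusted p of 0.426, and without both WT 2 and KO 3 it was 0.11.

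**Figure D2:**
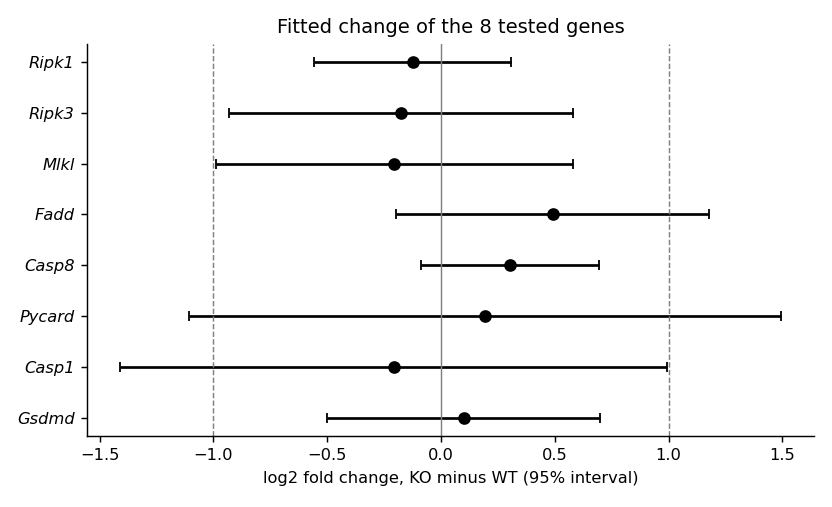
Log2 fold change, KO minus WT (x axis), of the 8 tested genes (rows) from the edgeR fit; points are estimates and bars 95% intervals, the solid line marks 0 and the dashed lines a change of 1 in either direction. Every bar crosses 0; Casp1 and Pycard, the genes with the fewest counts, have the widest bars.

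Of the inflammasome genes, the sensor Nlrp3 (ENSMUSG00000032691.14, chromosome 11 from 59541568 to 59566956) was close to the detection limit, with 13, 7 and 0 counts in KO 1 to KO 3 and 8, 0 and 16 counts in WT 1 to WT 3. Each group had 1 library without a read, KO 3 and WT 2, where a count of 0 allows up to 0.147 and 0.200 CPM (3 counts, counting error only). In the libraries with reads the levels were 0.591 and 0.3004 CPM in KO and 0.323 and 0.471 CPM in WT. It fell under the count filter and was not tested. With no filter its log2 fold change was 0.07 (SE 0.90, edgeR adjusted p = 0.986), an estimate too wide to place Nlrp3 higher or lower in KO.

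Pycard (ENSMUSG00000030793.4, chromosome 7 from 127989708 to 127993867), which encodes the adaptor ASC, had 26, 22 and 9 counts in KO and 30, 10 and 13 counts in WT. These gave 1.18, 0.944 and 0.440 CPM in KO 1 to KO 3 and 1.21, 0.667 and 0.383 CPM in WT 1 to WT 3, nearly the same span in both groups. The log2 fold change was 0.19 (SE 0.58, edgeR adjusted p = 0.897) with a 95% interval of the ratio from 0.464 to 2.82. It was -0.15 without WT 3 and 0.75 without WT 1. An unnamed transcript on the opposite strand, Gm45205, had 22 counts in all and shares 485 exonic bases with it.

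Casp1 (ENSMUSG00000025888.5, chromosome 9 from 5298517 to 5307265), the inflammatory caspase, had 43, 39 and 9 counts in KO and 28, 30 and 55 counts in WT, or 1.96, 1.67 and 0.440 CPM in KO 1 to KO 3 and 1.13, 2.001 and 1.62 CPM in WT 1 to WT 3. KO 3 stood below all other libraries, while KO 1 and KO 2 lay within the WT range. The log2 fold change was -0.21 (SE 0.54, edgeR adjusted p = 0.880) with all libraries and 0.21 without KO 3, and the 95% interval of the ratio was 0.377 to 1.99.

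Gsdmd (ENSMUSG00000022575.5, chromosome 15 from 75862327 to 75867408), the pore former cut by caspase-1, had 3.64, 4.85 and 4.06 CPM in KO 1 to KO 3 and 3.72, 4.60 and 3.44 CPM in WT 1 to WT 3. The groups covered almost the same range, and between its highest and lowest library Gsdmd varied 1.41-fold, less than any other tested member. Its log2 fold change was 0.10 (SE 0.27, edgeR adjusted p = 0.884), with a 95% interval of the ratio from 0.707 to 1.63.

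Levels of different genes were compared per length, as TPM (transcript abundance, counts divided by the exonic length of the gene and scaled to the same total in each library). Casp8 was the most abundant, at 14.1 ± 1.36 TPM in KO and 9.23 ± 2.72 TPM in WT (SD, n = 3 each), and its lowest library (6.30 TPM) lay above the highest library of Ripk1 (6.12 TPM) but below that of Fadd (7.37 TPM, in KO 3). Ripk1 followed with a mean over all 6 libraries of 4.84 TPM, then Fadd (3.91), Gsdmd (3.54), Mlkl (2.37), Ripk3 (2.33) and Casp1 (1.94). Each of these neighbours overlapped the next in its range over libraries. Pycard (0.434 TPM) and Nlrp3 (0.144 TPM) came last; the highest Pycard library (0.644 TPM) lay below the lowest Casp1 library (0.779 TPM), and Pycard and Nlrp3 overlapped. With the length of the principal transcript in place of all exons, Fadd and Gsdmd changed places, as did Mlkl and Ripk3. TPM is scaled to a total that holds the mitochondrial transcripts, whose share was lowest in KO 3 and highest in WT 2, so the CPM values above are the ones compared between groups.

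**Figure D3:**
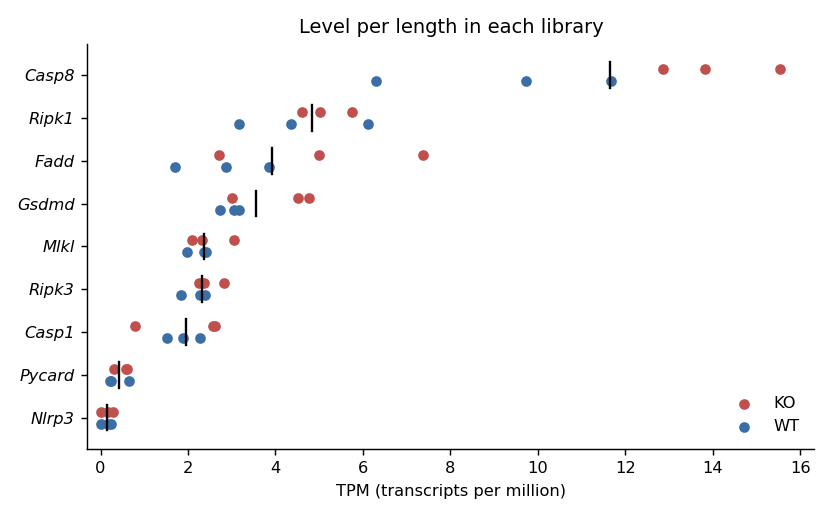
TPM (x axis, linear) of the 9 genes (rows, ordered by their mean over all libraries, black ticks) in the KO (red, upper) and WT (blue, lower) libraries. Casp8 has the highest mean, with libraries from 6.30 to 15.5 TPM, and is overlapped by Fadd alone, which reaches 7.37 TPM in KO 3. Pycard and Nlrp3 stay under 1 TPM in every library.

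Macrophages are a known site of expression of Nlrp3, Casp1, Ripk3 and Mlkl, and fat tissue holds them beside the adipocytes. In bulk tissue, fewer cells of a type and less RNA per cell cannot be told apart. Of 18 listed macrophage markers 16 were tested, 0 passed, and 8 were positive and 8 negative, with a median log2 fold change of -0.01. Their summed level was 180, 174 and 105 CPM in KO 1 to KO 3 and 122, 198 and 171 CPM in WT 1 to WT 3. KO 3 and WT 1 thus had the lowest sums, and they were also the libraries with the least Casp1 (0.440 and 1.13 CPM), the least Mlkl (1.81 and 2.26 CPM) and the least Ripk1 (15.8 and 18.02 CPM).

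Casp1 ranked all 6 libraries in the same order as the marker sum, as 0.423% of all tested genes did. Mlkl matched at 4 of the 6 ranks and the other 7 members at 0 to 2. The sum is weighted by Lyz2, the lysozyme gene, at 28.6 to 64.0 CPM in KO and 44.2 to 84.5 CPM in WT. Without Lyz2 it was 116, 120 and 76.0 CPM in KO 1 to KO 3 and 77.6, 113 and 122 CPM in WT 1 to WT 3. KO 3 and WT 1 stayed lowest, but WT 2, the library with the most Casp1, then came next above them, so the full match of Casp1 depended on Lyz2. Mertk, an engulfment receptor gene and the next most abundant marker, had a log2 fold change of -0.14 (SE 0.27).

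By the mean log2 level of the 16 tested markers instead, Mlkl and Casp8 matched at 4 of 6 ranks, Casp1 and Ripk1 at 3, and the others at 0 or 1. Matches at 4 ranks also occurred with sums of other marker lists: Mlkl and Casp8 with pan-leukocyte markers, Fadd with T, NK and B cell markers and Gsdmd with mast cell markers. These orders were looked at after the values were seen, and the part of macrophage content in the spread of Casp1 and Mlkl was not tested.

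**Figure D4:**
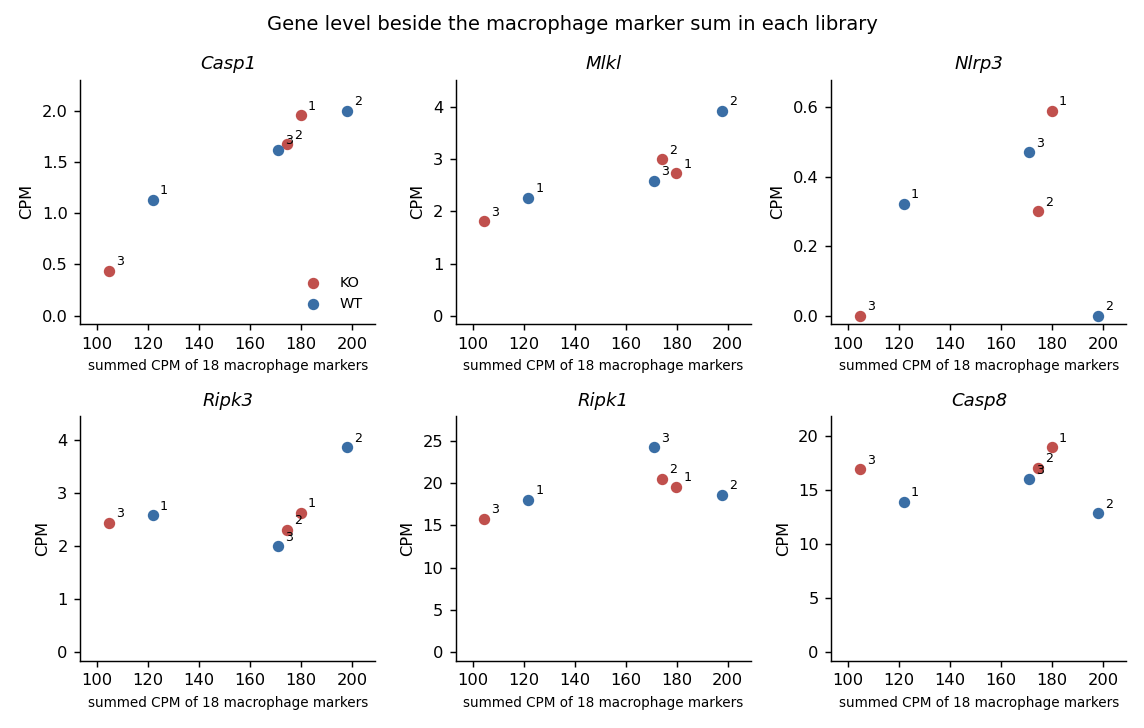
CPM of 6 of the genes (y axes, from 0) against the summed CPM of 18 macrophage markers (x axes) in each KO (red) and WT (blue) library, with replicate numbers. Casp1 is lowest in KO 3 (0.440 CPM at a sum of 105) and highest in WT 2 (2.001 CPM at a sum of 198), while Nlrp3 has no read in either of these libraries.

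Neutrophil markers were near the floor, with summed levels of 3.77, 3.48 and 1.95 CPM over 11 genes in KO 1 to KO 3 and 4.44, 9.27 and 4.91 CPM in WT 1 to WT 3. Each of the 11 had a read in some library, but Ly6g, a defining marker, had 10 counts in all and was at 0 in KO 1, KO 3, WT 1 and WT 3. S100a9, a neutrophil alarmin gene, had 0.637, 0.429 and 0.195 CPM in KO and 1.45, 4.34 and 1.35 CPM in WT, with no overlap (log2 -2.45, SE 0.63, edgeR adjusted p = 0.310; it passed with DESeq2). Its log2 fold change was -1.72 with WT 2 left out, and -1.39 with KO 3 left out as well. Mast cell markers summed to 30.5 to 33.3 CPM in KO and 14.5 to 23.4 CPM in WT, with 6 of 6 tested genes positive and 0 passing. Tpsb2 and Cpa3, mast cell protease genes, were at log2 2.23 (SE 0.53) and 1.29 (SE 0.43), and Tpsb2 passed with DESeq2. Sums for T, NK and B cells were 18.8 to 21.8 CPM in KO and 7.94 to 13.1 CPM in WT, where the antibody gene Ighm (log2 1.31, SE 0.36) passed with DESeq2 but not with edgeR.

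The other marker lists overlapped between the groups in their sums, and 0 of their genes passed with edgeR. Of the tested genes, 7 of 8 pan-leukocyte, 8 of 9 monocyte and dendritic cell and 8 of 8 endothelial markers were positive. So were 5 of 10 brown adipocyte, 0 of 5 erythrocyte and 0 of 9 skeletal muscle markers. Pan-leukocyte markers, led by Lcp1 and Ptprc, summed to 25.9 to 48.3 CPM in KO and 32.4 to 42.0 CPM in WT, with KO 3 lowest. Monocyte and dendritic cell markers, led by Zbtb46 and Ccr2, summed to 30.8 to 51.5 CPM in KO, where KO 3 was again lowest, and 36.4 to 39.7 CPM in WT. Brown adipocyte markers summed to 16333 to 18891 CPM in KO and 14240 to 17745 CPM in WT. Endothelial markers came to 463 to 842 CPM in KO and 359 to 580 CPM in WT, with Emcn at log2 0.57 (SE 0.24). Erythrocyte markers came to 499 to 759 CPM in KO and 723 to 902 CPM in WT, with the globin gene Hbb-bt at log2 -0.70 (SE 0.20). Skeletal muscle markers, led by Myh4 and Acta1, varied most between libraries, with KO 2 and WT 3 highest, at 2.27 to 44.7 CPM in KO and 10.0 to 52.0 CPM in WT. The part of any of these cells in the levels of the death genes was not tested.

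Of the ligands, receptors and sensors that feed this machinery, 12 of 14 were tested, 6 were positive and 6 negative, and 0 passed. The ligand genes Tnf and Fasl were scarce, with 15 and 26 counts over all 6 libraries. The TNF receptor gene Tnfrsf1a was well expressed, at 83.8, 84.9 and 89.6 CPM in KO and 60.8, 68.6 and 98.6 CPM in WT, with overlap. Tnfsf10, the gene of the death ligand TRAIL, had 22.3, 29.7 and 22.3 CPM in KO 1 to KO 3 and 17.4, 7.67 and 15.1 CPM in WT 1 to WT 3. Every KO library lay above the WT libraries, but Tnfsf10 missed the threshold (log2 0.88, SE 0.29, edgeR adjusted p = 0.371). The death receptor gene Fas went the other way, with overlap (log2 -0.53, SE 0.22, edgeR adjusted p = 0.414). It had 24.9, 21.7 and 17.7 CPM in KO 1 to KO 3 and 23.3, 38.0 and 31.4 CPM in WT 1 to WT 3. Zbp1, a nucleic acid sensor that can engage RIPK3 without RIPK1, had 1.501, 1.97 and 0.586 CPM in KO and 0.566, 1.27 and 0.559 CPM in WT, with overlap.

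Among 24 regulators of the RIPK1 complex, all of them tested, 11 were positive, 13 negative and 0 passed, with a median log2 fold change of -0.02. Without overlap between the groups, 2 were higher and 4 lower in KO, against 10.1% and 9.39% of all genes. Lower in every KO library were Cyld, Tbk1, Ppm1b and Hsp90aa1. Higher in every KO library were Rbck1 and Sharpin, which encode subunits of the ubiquitin ligase that builds linear chains on RIPK1. Rbck1 averaged 91.8 ± 14.7 CPM in KO and 62.3 ± 8.94 CPM in WT, and Sharpin 18.2 ± 1.08 CPM in KO and 13.2 ± 1.34 CPM in WT (SD, n = 3 each). Rbck1 (log2 0.56, SE 0.18) had an edgeR adjusted p of 0.374, and Sharpin (log2 0.46, SE 0.17) one of 0.387. For the catalytic subunit gene Rnf31 the log2 fold change was 0.07 (SE 0.19). Hsp90aa1, a chaperone gene whose product stabilises RIPK1, RIPK3 and MLKL, was at 97.0, 115 and 117 CPM in KO and at 144, 125 and 528 CPM in WT. Its log2 fold change was -1.28 (SE 0.48, edgeR adjusted p = 0.388) and -0.30 without WT 3. Cflar, which encodes the caspase-8 inhibitor FLIP, had a log2 fold change of -0.26 (SE 0.18).

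Of 19 listed inflammasome sensors and NLRP3 cofactors 18 were found and 11 tested. Of these, 7 were positive, 4 negative and 0 passed. As with Nlrp3, the sensor genes Nlrp1a, Nlrp6, Nlrp10, Nlrp12, Nlrc4 and Mefv had between 11 and 34 counts over all libraries and were under the filter. Naip5 and Naip6 are near-identical copies, between which reads can be split. Nek7, the kinase-family protein that NLRP3 needs to assemble, was abundant by comparison, at 89.0, 83.9 and 75.3 CPM in KO and 113, 110 and 100.2 CPM in WT. All KO libraries lay below the WT libraries, and Nek7 missed the threshold (log2 -0.38, SE 0.16, edgeR adjusted p = 0.415). Gbp5, an interferon-induced GTPase gene linked to NLRP3 activation, had 9.10, 12.1 and 7.96 CPM in KO and 5.29, 3.20 and 5.24 CPM in WT, without overlap (log2 1.08, SE 0.28, edgeR adjusted p = 0.310; it passed with DESeq2).

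Inflammasome effectors and their inhibitors gave 12 tested genes of 14, with 7 positive, 5 negative and 0 passing. Il1b, the cytokine gene whose product caspase-1 matures, had 0.364, 0.429 and 0.440 CPM in KO and 0.323, 1.47 and 0.530 CPM in WT, where WT 2 stood apart. Casp4, the sensor caspase of the non-canonical route, had 1.36, 1.97 and 0.440 CPM in KO and 1.09, 3.53 and 1.06 CPM in WT, and WT 2 was again the highest. Hmgb1, a nuclear protein gene whose product is released from lysed cells, was lower in every KO library, at 27.0 ± 8.01 CPM in KO and 55.9 ± 19.8 CPM in WT (SD, n = 3 each). It missed the threshold with edgeR (log2 -1.04, SE 0.29, adjusted p = 0.322), passed with DESeq2, and was at log2 -0.51 when WT 2 and KO 3 were left out.

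**Figure D5:**
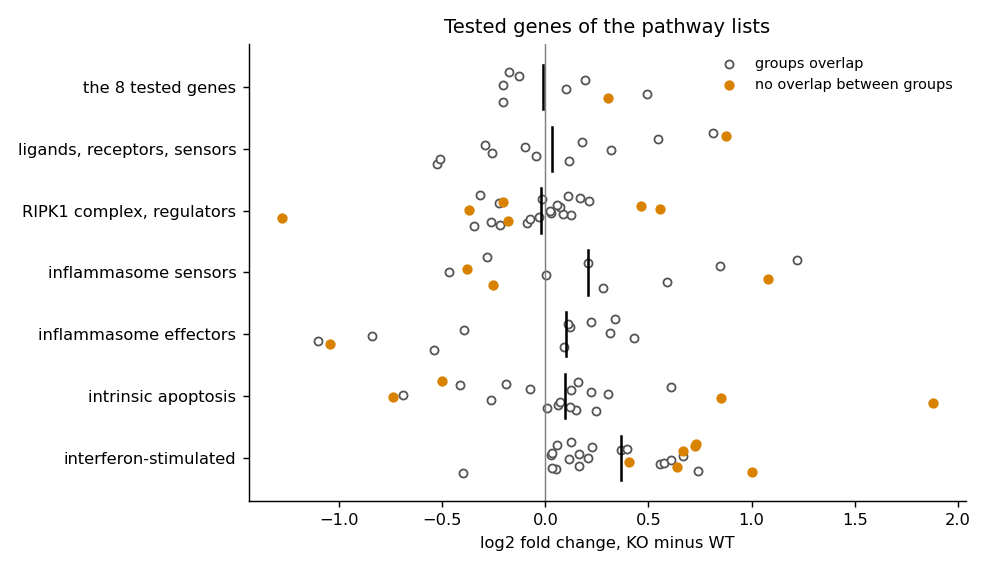
Log2 fold change, KO minus WT (x axis), of every tested gene in 7 lists (rows); filled points are genes whose KO and WT libraries do not overlap, open points those that overlap, and black ticks are list medians. The 8 tested death genes lie between -0.21 and 0.49 with Casp8 the filled point, the pathway lists spread to both sides of 0, and 24 of 25 interferon-stimulated genes lie to the right of it.

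The intrinsic, mitochondrial route of apoptosis was listed for comparison. Of 22 genes 20 were tested, 13 positive, 7 negative and 0 passing. Bbc3 and Bcl2l11, which encode the pro-apoptotic BH3-only proteins PUMA and BIM, were higher in every KO library. Bbc3 had 3.00, 2.66 and 9.87 CPM in KO and 1.82, 0.800 and 1.501 CPM in WT (log2 1.88, SE 0.55, edgeR adjusted p = 0.339, and 1.02 without KO 3; it passed with DESeq2). Bcl2l11 averaged 7.32 ± 1.66 CPM in KO and 4.05 ± 0.363 CPM in WT (SD, n = 3 each). It missed the threshold (log2 0.85, SE 0.26, edgeR adjusted p = 0.348). Bid, the BH3-only protein gene whose product caspase-8 cleaves, and the survival gene Mcl1 lay lower in every KO library. Bid (log2 -0.74, SE 0.30) had an edgeR adjusted p of 0.413 and was at -0.37 without WT 2 and KO 3. Mcl1 (log2 -0.50, SE 0.17) had an edgeR adjusted p of 0.375.

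Partners of PGAM5 at mitochondria, among them Fundc1, Pink1, Mavs, Map3k5 and Keap1, gave 12 tested genes of 12. Pgam5 itself fell (log2 -4.84, SE 0.59, edgeR adjusted p = 0.0243). It was at -4.35 to -6.18 with 1 library left out, and its edgeR adjusted p was then 0.0581 without WT 1, 0.0545 without WT 3, 0.0812 without KO 1 and 0.165 without KO 2. With limma-voom the adjusted p was 0.0531 and with a replicate block in edgeR 0.0655. Of the other 11 genes 5 were positive, 6 negative and 0 passed. For Mavs, which relays viral RNA sensing, the log2 fold change was 0.11 (SE 0.20).

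Interferon induces several members, among them Casp1, Casp8 and Mlkl, and interferon-stimulated genes were set beside them. Of 25 listed, 24 were positive, against 49.8% of all genes, and 0 passed. The median log2 fold change was 0.37, against -0.01 for the 8 death genes and -0.00191 for all genes. Some other lists also had all signs the same way. Of the tested endothelial markers 8 of 8 were positive, with a median of 0.43, and of the skeletal muscle markers 0 of 9. Without overlap between the groups, 6 interferon-stimulated genes were higher and 0 lower in KO, against 10.1% and 9.39% of all genes. Of the 25, 6 were higher and 0 lower by an unadjusted p of 0.05 (6.3% and 5.49% of all genes). That count of 6 higher was 4, 6 and 5 without WT 1, WT 2 and WT 3 in turn. It was 3, 3 and 8 without KO 1, KO 2 and KO 3, and 12 without both WT 2 and KO 3. Without WT 1, 1 gene of the list was lower. Of all genes, 1828, 1299 and 1876 had an unadjusted p under 0.05 without WT 1, WT 2 and WT 3. They numbered 1768, 1482 and 1016 without KO 1, KO 2 and KO 3, and 1319 without both WT 2 and KO 3. Each of these fits tested 15531 to 15669 genes. Gbp3, whose promoter elements are printed above, averaged 22.8 ± 6.74 CPM in KO and 11.4 ± 1.504 CPM in WT (SD, n = 3 each), with no overlap (log2 1.001, SE 0.24, edgeR adjusted p = 0.306; it passed with DESeq2). Casp1 and Mlkl, at log2 -0.21 and -0.21, lay below 0, and Casp8 at 0.31 was close to the list's median. Tap1 and Irf1, an antigen transporter gene and an interferon-induced transcription factor gene, were also higher in every KO library (log2 0.73, SE 0.19, and log2 0.41, SE 0.16) and did not pass. The difference between the death genes and the interferon list was not tested.

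NF-kappaB targets, which act downstream of the same death receptor complexes, had 12 of 15 genes tested, 8 positive, 4 negative and 0 passing. Bcl3, a co-regulator gene of NF-kappaB, was at 11.3, 14.6 and 23.1 CPM in KO and 7.999, 8.87 and 9.51 CPM in WT (log2 0.89, SE 0.27, edgeR adjusted p = 0.348). Bcl3 lay higher in every KO library, and its log2 fold change was 0.56 without KO 3.

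For each tested member the gene most alike in its course over the 6 libraries was sought among 13220 genes with a mean of at least 1 CPM, by the root mean square difference of centred log2 CPM. Casp8 was closest to Mrm1 (0.0364) and Ripk1 to Slc15a4 (0.0393). Mrm1 was also higher in every KO library, which largely follows from its being picked for likeness to Casp8. With so many candidates and 6 libraries, a close match does not show that 2 genes are linked. Fadd was closest to Fbxl7 (0.0442), Mlkl to Anxa1 (0.0445), Gsdmd to Cxcl14 (0.0609) and Ripk3 to Hmgb3 (0.0671). The scarcer genes Pycard and Casp1 had no neighbour as close, at 0.134 for Lrrc36 and 0.180 for Gm12781. They also varied most, with ranges of 1.47 and 1.99 in log2 CPM, against 0.484 for Gsdmd and 0.556 for Casp8. The distances are not scaled to that range, so they do not rank the members by closeness of match. No member was the closest gene of another.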

How the data were processed

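The values the authors deposited are raw, unscaled read counts for each gene. Alignment with HISAT2 (2.1.0), counting with featureCounts (1.6.2), the use of DESeq2 and the build mm10 are known per the submitters' processing notes. Which annotation release and which strand option were used is not given in the sources used here. The kit, per the labels' protocols, was a stranded one that purifies mRNA by its poly(A) tail. Symbols (53620 of 53715 identifiers), positions and exonic lengths came from GENCODE release M 21.

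A filter (filterByExpr, with a minimum count of 10 and total of 15) left 15123 genes. After TMM scaling, KO was compared with WT in edgeR 4.0.16 by its quasi-likelihood test, with genotype as the only term and Benjamini-Hochberg adjustment over all 15123 genes; limma 3.58.1 and DESeq2 1.42.0 served as alternatives, all in R 4.3.3. SE and 95% intervals come from that test's statistic and its degrees of freedom. CPM carry the TMM scaling, a prior count of 2 went into log2 CPM, and floors are 3 counts per library. The SD measures the spread between the 3 mice in each group. The edgeR p-values set a difference against a spread estimated with the help of all genes (median 9.61 degrees of freedom).

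The members, the 19 lists and the tests were chosen with earlier results of these data known. Named were all members and Pgam5, and from each list the genes that passed, otherwise up to 4 with an unadjusted p under 0.05 and no overlap, otherwise the 2 of highest mean CPM. From the interferon list, 1 gene that this rule names is not reported here. Chosen with their values in view were Tnfrsf1a, Tnf, Fas, Fasl, Zbp1, Rnf31, Cflar, Cyld, Tbk1, Ppm1b, Il1b, Casp4, Mavs, Ly6g and Serpinb6a. So were the low sensor genes and the genes whose promoters were searched beside the members.

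On simulated counts for KO against WT with 15123 genes in 3 draws, the test recovered 89.0% of 4-fold and 35.0% of 2-fold changes. Of the calls 7.92% were false, and the 95% intervals held 95.2% of the true values. Changes were placed only in genes with a mean of at least 1 CPM, which leaves out Pycard and Nlrp3. Counts were drawn with the spread that the fit itself had estimated, so these shares describe that model and not the real libraries. Libraries of a group differed by more than sampling noise (chi-square per degree of freedom 30.1 to 192).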

Additional observations from a re-analysis of the deposited data

How the results depend on the processing

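None of the tested members passed in any of the 16 alternatives (other scaling, tools, filters, a robust fit, a replicate block, mitochondrial genes left out, libraries left out), where the smallest adjusted p of a member was 0.426. Directions held in all 16 for Casp8 and Fadd (log2 0.24 to 0.40 and 0.11 to 0.73). With sample quality weights Ripk3, Mlkl and Casp1 turned positive (0.022, 0.085 and 0.075), as they did without both WT 2 and KO 3 (0.12, 0.24 and 0.39). With 1 library left out at a time, log2 fold changes ran from -0.21 to 0.023 for Ripk1, -0.38 to 0.11 for Ripk3, -0.36 to 0.051 for Mlkl, -0.56 to 0.21 for Casp1, -0.15 to 0.75 for Pycard and -0.022 to 0.22 for Gsdmd. The cause of these changes of sign was not tested.

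The 9 calls over all genes became 168 with DESeq2, 663 with no filter, 21 with sample quality weights, 27 without both WT 2 and KO 3, and 0 to 17 with 1 library left out (0 without KO 2, with 1482 genes at an unadjusted p under 0.05). The labels name no pairing by replicate number. Same-numbered deviations from the group mean correlated at -0.11, 0.10 and 0.09, and 2 of 6 libraries correlated best with their own number. With 3 libraries in each group these values cannot decide whether the numbers pair the samples. With the number as a replicate block there were 5 calls. Nlrp3, Pycard and Casp1 had the fewest counts of the members, 44, 110 and 204 in all; the SE of Casp1 was 0.54 with all libraries and 0.42 without KO 3. With no filter, Tnfsf10, Hsp90aa1, Bcl3 and Hbb-bt also passed, besides the named genes that passed with DESeq2. The principal transcript length and the list counts with libraries left out were chosen after seeing the data.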
